A study of Mus musculus with 2 samples.

Results

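The mitochondrial ribosomal protein genes are the nuclear genes for the protein subunits of the ribosome that works inside mitochondria. They were taken as all genes of the deposited gene table whose symbol is Mrpl or Mrps followed by a number, which gave 76 of 13381 genes, 47 named Mrpl and 29 named Mrps. RNA of mouse brain was measured in 2 libraries, 1 titled miR-7KD (animal number 3) and 1 titled WT (animal number 7), to ask which genes differ when the microRNA miR-7 is lowered in inflamed brain. Both animals were C57BL/6J mice, 6 to 8 weeks old by the labels and 8 to 10 weeks old by the study's methods. By those methods both genotypes received LPS, a bacterial endotoxin, by intraperitoneal injection at 2.5 mg per kg, and brain tissue was collected after 12 h. The labels contradict each other. The genotype field reads wild type for animal number 3 and miR-7 KD for animal number 7, which is the reverse of the titles. Every direction below follows the titles, in the names miR-7KD-titled and WT-titled library, and would turn round if the genotype fields were right. The labels give brain as the tissue but the extraction text speaks of retinas. None of 6 photoreceptor genes looked for was listed in the gene table. All 6 neuron markers were listed, which cannot separate brain from retina, since both hold neurons. The sources used here do not say how miR-7 was lowered in these mice.

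The mitochondrial ribosome translates the few mRNAs that mitochondrial DNA itself encodes, all of them for subunits of the respiratory chain and the ATP synthase. Its rRNAs come from mitochondrial DNA, whereas every one of its proteins is made in the cytoplasm from nuclear genes and imported. The large subunit forms peptide bonds and holds the exit tunnel, and the small subunit reads the mRNA. Part of the proteins have counterparts in bacterial ribosomes and part are found only in mitochondria. Neurons depend heavily on the oxidative phosphorylation that these products carry out.

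Levels are given as FPKM, the number of sequenced fragments scaled to transcript length and to library size. A log2 ratio sets the miR-7KD-titled library over the WT-titled library after 0.1 FPKM is added to both values, and a gene is called higher or lower where the values differ at least 2-fold, at a log2 ratio of 1 or more in size. With 1 library per title there was no replicate error and no test was possible, so a call says that these libraries differ and not that the genotypes do. The FPKM tables do not give the depth, and no counting interval can be placed on a value.

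Only 5 of the 76 genes differed at least 2-fold between the libraries. Mrpl49, Mrps21, Mrps18a and Mrpl19 were higher in the miR-7KD-titled library, and Mrps12 was lower. Of all 11969 genes that reached 1 FPKM in either library, 11.6% differed at least 2-fold, 6.01% higher and 5.58% lower, against 6.58% of the mitochondrial ribosomal protein genes. All 76 were at 1 FPKM or more, and none was listed at 0 in either library.

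The promoters of 4 of these 5 genes are shown. Those of Mrps12, Mrps21 and Mrps18a carry letters compared further on, and those of Mrps12 and Mrpl49 are shared with a neighbouring gene. Each is the RefSeq window of 300 bases, from 250 bases before the start site to 50 after it, in GRCm38.p6, written 5′ to 3′ on the strand of the gene. No window matched Mrpl19. Capitals mark CCGGAAG (a core that ETS factors such as GABP bind) and AAGATGGCG (a YY1 core) on either strand, and CTTCCGG is CCGGAAG read on the other strand. The windows are chr7:28741772-28742071 on the minus strand for Mrps12, chr3:95871465-95871764 on the minus strand for Mrps21, chr17:46110754-46111053 on the plus strand for Mrps18a and chr19:6057706-6058005 on the minus strand for Mrpl49.
Mrps12: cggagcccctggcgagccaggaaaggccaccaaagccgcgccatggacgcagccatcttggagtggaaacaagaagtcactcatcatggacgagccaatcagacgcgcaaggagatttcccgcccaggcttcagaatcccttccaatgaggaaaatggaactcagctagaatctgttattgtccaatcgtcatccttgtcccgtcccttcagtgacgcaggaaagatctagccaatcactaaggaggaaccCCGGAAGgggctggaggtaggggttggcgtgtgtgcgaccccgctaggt
Mrps21: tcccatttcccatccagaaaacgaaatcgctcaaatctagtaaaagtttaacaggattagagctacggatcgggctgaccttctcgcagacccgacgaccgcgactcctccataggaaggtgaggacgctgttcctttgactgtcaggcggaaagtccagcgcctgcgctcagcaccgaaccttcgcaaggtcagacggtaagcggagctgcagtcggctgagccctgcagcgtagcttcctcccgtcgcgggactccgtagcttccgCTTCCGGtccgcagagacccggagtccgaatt
Mrps18a: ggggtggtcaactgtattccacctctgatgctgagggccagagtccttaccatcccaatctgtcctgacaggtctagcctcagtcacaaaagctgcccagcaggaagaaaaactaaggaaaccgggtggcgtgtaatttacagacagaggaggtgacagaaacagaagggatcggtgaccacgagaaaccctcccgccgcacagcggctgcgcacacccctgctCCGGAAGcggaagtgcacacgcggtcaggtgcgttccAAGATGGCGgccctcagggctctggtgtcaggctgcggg
Mrpl49: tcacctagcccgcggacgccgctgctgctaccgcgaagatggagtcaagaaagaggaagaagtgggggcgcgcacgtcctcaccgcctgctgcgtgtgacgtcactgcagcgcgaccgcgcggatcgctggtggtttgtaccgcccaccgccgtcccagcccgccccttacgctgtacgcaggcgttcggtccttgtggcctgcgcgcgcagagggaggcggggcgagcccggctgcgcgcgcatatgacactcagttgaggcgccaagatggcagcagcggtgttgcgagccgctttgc

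As a set, the genes were at nearly the same level in both libraries. The median level was 9.89 FPKM in the miR-7KD-titled library and 9.19 FPKM in the WT-titled library, and the summed level was 934 FPKM against 918 FPKM. This was 0.567% of all FPKM in the miR-7KD-titled library and 0.563% in the WT-titled library. The set stood above the typical gene, whose median among genes at 1 FPKM or more was 5.56 FPKM in the miR-7KD-titled library and 5.55 FPKM in the WT-titled library. The log2 ratio of the set had a median of 0.01, with 40 genes above 0 and 36 below, beside a median of -0.01 over all 11969 genes. The middle 50% of the set lay between -0.12 and 0.23, a width of 0.35, beside -0.19 to 0.18 and a width of 0.37 for all genes. Within 0.25 of 0 on the log2 scale lay 49 of the 76 genes, or 64.5%, beside 58.8% of all genes.

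Levels within the set spanned 1.40 to 52.9 FPKM in the miR-7KD-titled library and 1.19 to 55.5 FPKM in the WT-titled library, and 37 genes reached 10 FPKM in each. Mrpl41, a mitochondria-specific protein of the large subunit, had the highest mean, with 47.9 FPKM in the miR-7KD-titled library and 55.5 FPKM in the WT-titled library. Mrpl42 followed with 42.0 and 48.8 FPKM, in the same order of libraries. Mrps21 came next with 52.9 FPKM against 19.6 FPKM, so that it led the set in the miR-7KD-titled library and not in the other. Mrpl12, the stalk protein to which translation factors bind, had 28.2 against 31.1 FPKM, and Mrpl4, which lines the exit tunnel, had 28.2 against 30.6 FPKM. Mrpl2, a protein next to the peptidyl transferase centre, had 26.4 against 29.3 FPKM. All 6 of these genes but Mrps21 had the lower value in the miR-7KD-titled library, by less than 2-fold. Mrps6 had 23.4 against 31.3 FPKM, Mrps33 had 27.9 against 16.9 FPKM, Mrpl34 had 21.5 against 23.0 FPKM and Mrpl50 had 21.6 against 21.4 FPKM.

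At the low end the 5 genes with the lowest means were Mrps25, Mrpl33, Mrps14, Mrpl35 and Mrps35. Mrps25 had 1.44 FPKM in the miR-7KD-titled library and 1.19 FPKM in the WT-titled library, and Mrpl33 had 1.43 against 1.28 FPKM. Mrps14 had 1.40 against 1.82 FPKM, Mrpl35 had 1.86 against 1.92 FPKM and Mrps35 had 1.85 against 2.13 FPKM. No neighbours in the order of levels can be said to differ, since no spread over animals is known. Places at the low and the high end also depend on how a gene value was formed, as the transcript values below show for Mrpl33. The value of Mrpl42 equals that of its single listed transcript. Spread over the bases in all its exons, that transcript would give 7.60 against 8.83 FPKM. For Mrpl4 the same step would give 13.9 against 15.1 FPKM.

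**Figure D1:**
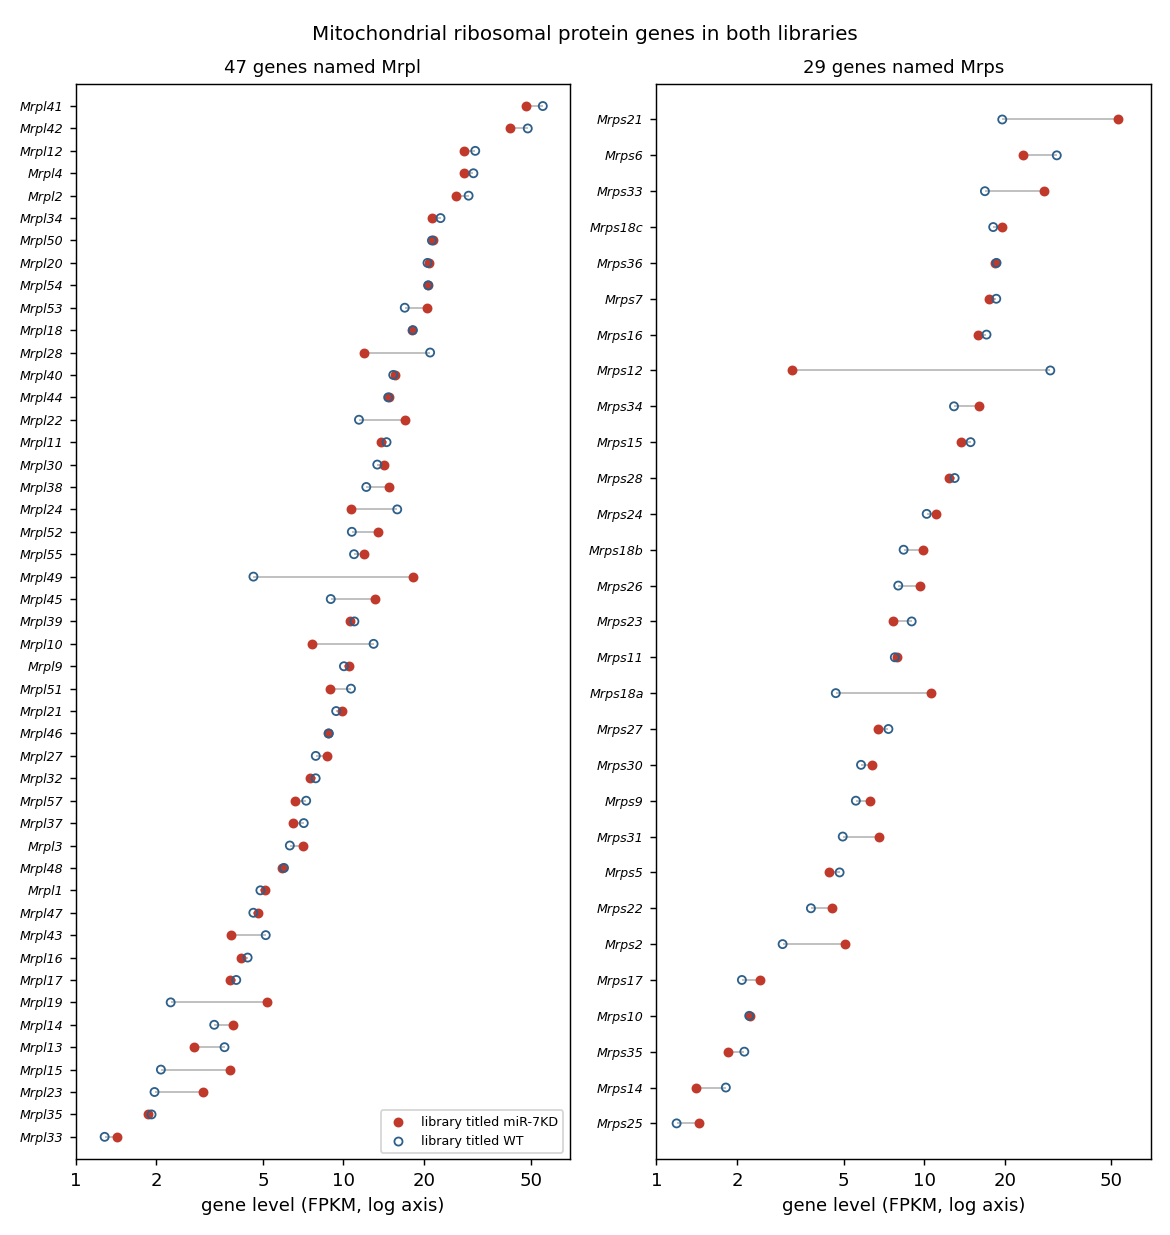
Level of each of the 76 genes in FPKM on a log axis, in the miR-7KD-titled library (filled) and the WT-titled library (open), with genes named Mrpl on the left and genes named Mrps on the right, ordered by mean level. Most pairs of points lie close together, and the widest gaps are those of Mrps12 (3.20 and 29.6 FPKM) and Mrpl49 (18.1 and 4.61 FPKM).

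Mrps12 is the counterpart of bacterial S12, a protein of the decoding centre of the small subunit. It had 3.20 FPKM in the miR-7KD-titled library and 29.6 FPKM in the WT-titled library, a log2 ratio of -3.17, so that the level in the WT-titled library was 9.26 times the other. This was the largest difference of the set. Its head-to-head neighbour Sars2, the mitochondrial seryl-tRNA synthetase, starts 172 bases away on the opposite strand by the GENCODE M21 annotation. Their promoter windows, placed by RefSeq start sites instead, share 246 bases. Sars2 had 2.71 FPKM in the miR-7KD-titled library and 2.60 FPKM in the WT-titled library, a log2 ratio of 0.06, and so showed no such difference.

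Mrpl49, a mitochondria-specific protein of the large subunit, had 18.1 FPKM in the miR-7KD-titled library and 4.61 FPKM in the WT-titled library, a ratio of 3.94 and a log2 ratio of 1.95. By the GENCODE M21 annotation it starts 59 bases from Fau, which encodes a cytoplasmic ribosomal protein fused to a ubiquitin-like part. Their windows, placed by RefSeq start sites instead, share 291 of 300 bases. Fau had 91.9 against 86.2 FPKM, a log2 ratio of 0.09. For both divergent pairs, the mitochondrial gene differed between the libraries and its partner was at about the same level. Most genes of the table also stayed under 2-fold. Mrpl49 also overlaps the antisense gene Syvn1 by 91 bases at its other end, and Syvn1 had 8.40 against 6.49 FPKM.

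Mrps21, the counterpart of bacterial S21, had 52.9 FPKM in the miR-7KD-titled library and 19.6 FPKM in the WT-titled library, a ratio of 2.70 and a log2 ratio of 1.43. A processed pseudogene, Gm6181, matches its main transcript at 97.3% identity over 264 of 488 bases and was not listed, so the sharing of reads between them cannot be seen. Mrps18a, a protein of the large subunit despite its name, had 10.6 against 4.67 FPKM, a log2 ratio of 1.17. It overlaps Rsph9, a gene on the other strand, by 6876 bases of gene span, and Rsph9 had 5.50 against 5.40 FPKM. Mrpl19, the counterpart of bacterial L19, had 5.18 against 2.26 FPKM, a log2 ratio of 1.16, and overlaps the antisense gene Gcfc2 by 2065 bases, which had 2.06 against 1.505 FPKM. The sources used here do not say whether the counting used strand, so reads of overlapping antisense genes cannot be told apart.

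Just under the threshold, Mrpl15 was the next gene on the higher side with 3.77 FPKM in the miR-7KD-titled library and 2.08 FPKM in the WT-titled library, a log2 ratio of 0.83. The genes nearest the threshold on the lower side were all of the large subunit except Mrps6. Mrpl28 had 11.98 against 21.1 FPKM and a log2 ratio of -0.81. Mrpl10, the base of the stalk, had 7.60 against 13.0 FPKM and a log2 ratio of -0.76. Mrpl24, at the mouth of the exit tunnel, had 10.7 against 15.9 FPKM and a log2 ratio of -0.57, and Mrps6 followed with a log2 ratio of -0.42. None of these reached 2-fold.

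The structural groups of the ribosome gave small numbers of calls in either direction, beside 11.6% of all genes at 1 FPKM or more. Of 29 large subunit proteins with bacterial counterparts, 1 was higher (Mrpl19) and none was lower, and the median log2 ratio was 0.02. Of 20 mitochondria-specific proteins of the large subunit, 2 were higher (Mrpl49 and Mrps18a) and none lower, with a median of 0.00. Not counted among these 20 is Mrpl58, listed as Ict1, which was lower with a log2 ratio of -1.01. Of 16 small subunit proteins with bacterial counterparts, 1 was higher (Mrps21) and 1 lower (Mrps12), with a median of -0.03. These 3 medians lay within 0.05 of the median of all genes. The 10 mitochondria-specific proteins of the small subunit had no call and a median of 0.26, with 7 of 10 above 0 and a range from -0.23 for Mrps23 to 0.73 for Mrps33. Mrps36 carries a mitoribosomal name but is known as a subunit of the oxoglutarate dehydrogenase complex, and had 18.5 against 18.6 FPKM.

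Among the genes listed under an Mrpl or Mrps name, no smaller part of the large subunit had a call, beside 11.6% of all genes. These parts held only 3, 8 and 6 such genes, too few to set apart from that share. The 3 stalk proteins Mrpl10, Mrpl11 and Mrpl12 had log2 ratios from -0.76 to -0.06, all below 0. The 8 proteins around the exit tunnel ranged from -0.57 to 0.57, with a median of 0.03. The 6 proteins of the central protuberance listed under such names, at the top of the large subunit, lay between -0.03 and 0.28 with a median of 0.01. Mrpl58 is also a protein of the central protuberance but is listed as Ict1 and not counted among these 6. It was lower, with 4.66 against 9.51 FPKM.

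Mammals carry 3 genes related to bacterial S18, and their products sit in different places. Mrps18a, of the large subunit, had 10.6 FPKM in the miR-7KD-titled library and 4.67 FPKM in the WT-titled library. Mrps18b had 9.91 against 8.38 FPKM, a log2 ratio of 0.24, and Mrps18c had 19.6 against 18.1 FPKM, a log2 ratio of 0.11. All 3 were above 0, and Mrps18a was the only one past 2-fold.

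**Figure D2:**
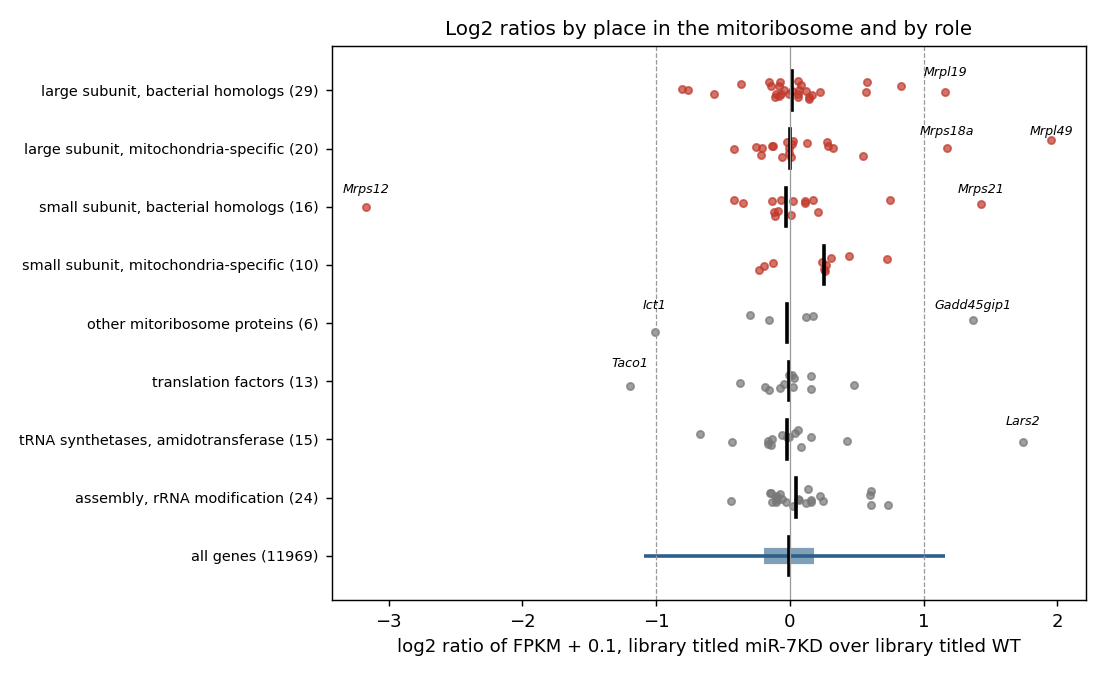
Log2 ratio of each gene, miR-7KD-titled library over WT-titled library, for the 4 groups of mitochondrial ribosomal proteins (red) and for 4 other lists of mitochondrial translation (grey), with black bars at the medians and dashed lines at 2-fold. The blue bar gives the middle 50% of all 11969 genes and the blue line their 5th to 95th percentiles (-1.09 to 1.16), and 5 red points lie past the dashed lines.

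The rest of the mitochondrial translation apparatus was described by 3 lists. Of 6 listed mitoribosome proteins with other names, Gadd45gip1 was higher with 10.8 FPKM in the miR-7KD-titled library against 4.14 FPKM in the WT-titled library, and Ict1, a peptidyl-tRNA hydrolase built into the large subunit, was lower with 4.66 against 9.51 FPKM. The highest of that list, Chchd1 and Aurkaip1, had 35.8 against 44.1 FPKM and 25.3 against 22.5 FPKM. Both of these stayed under 2-fold, as did the other 2 of the list, Dap3 and Ptcd3. Of 13 translation factors, 1 was lower, the COX1 translational activator Taco1 with 1.19 against 2.85 FPKM. The elongation factor Tufm had 15.2 against 16.9 FPKM and the factor listed as 1700021F05Rik had 15.2 against 15.01 FPKM. Tufm delivers aminoacyl-tRNA to the mitochondrial ribosome, and neither of this pair differed at least 2-fold. Of 15 aminoacyl-tRNA synthetases and amidotransferase subunits at 1 FPKM or more, 1 was higher, the leucyl-tRNA synthetase Lars2 with 28.04 against 8.31 FPKM, and the next highest, Aars2, had 6.27 against 8.49 FPKM. Calls in these 3 lists together were 2 higher and 2 lower among 34 genes, or 11.8%, beside 11.6% of all genes.

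Of genes at 1 FPKM or more, none of 24 for assembly and rRNA modification was called, beside 11.6% of all genes. Nor was any of 9 for mitochondrial DNA transcription and replication or of 10 regulators of mitochondrial biogenesis. The medians were 0.04, -0.15 and -0.08. Mrm1, of the assembly list, was not counted because it stayed under 1 FPKM. It had 0.383 against 0.994 FPKM, a log2 ratio of -1.18, and with no minimum 1 assembly gene was lower. The highest of these lists were Mpv17l2 (12.9 against 8.45 FPKM) and Dhx30 (9.42 against 10.2 FPKM) for assembly. For transcription of mitochondrial DNA they were Slirp (8.67 against 9.65 FPKM) and Lrpprc (9.45 against 8.80 FPKM), which together stabilise mitochondrial mRNAs. For the regulators they were Esrra (9.79 against 10.1 FPKM) and Ppargc1a (7.21 against 7.95 FPKM). Gabpa, the DNA-binding subunit of GABP, had 4.40 against 3.87 FPKM and Yy1 had 6.33 against 4.27 FPKM. Of 13 protein-coding genes of mitochondrial DNA only mt-Nd5 and mt-Nd4 were listed. For mt-Nd5 the values were 1694 FPKM in the miR-7KD-titled library and 0 in the WT-titled library, and for mt-Nd4 they were 0 against 13.6 FPKM. A listed 0 for a mitochondrial mRNA in brain is no measure of its absence, and no ratio is given.

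The cytoplasmic ribosomal proteins, found by the names Rpl and Rps with a number, were the comparison of like function. Of 84 such genes at 1 FPKM or more, 2 were higher and 3 lower, or 5.95%, and the median log2 ratio was 0.04. Both higher entries, the pseudogene Rpl27-ps3 (83.2 against 0 FPKM) and the retrocopy Rps27rt (153 against 0 FPKM), were listed at 0 in the WT-titled library. The lower ones were Rpl15, Rpl29 and Rpl36al. The names also took in 5 other pseudogene entries and Rps19bp1, which is no ribosomal protein. Without these 8 names, a choice made after seeing the data, 0 were higher and 3 lower of 78 genes, or 3.85%, with a median of 0.04. Over all 86 names, those 8 included, the median level was 66.9 FPKM in the miR-7KD-titled library and 61.0 FPKM in the WT-titled library. The mitochondrial set had 9.89 and 9.19 FPKM. Both sets of ribosomal genes had a smaller share past 2-fold than the 11.6% of all genes.

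The number of exons goes with the share of genes past 2-fold in these libraries. Among all genes at 1 FPKM or more, 54.1% of 185 genes with 1 exon in their highest listed transcript differed at least 2-fold, and 4.84% of 6297 genes with 9 exons or more. The mitochondrial ribosomal protein genes had a median of 5 exons and a median transcript of 1284 bases, against 9 exons and 2974 bases for all genes. Of 20 members with 2 to 3 exons, 2 were called (Mrps21 and Mrps12), or 10%, beside 30.2% of all genes of that class. Of 27 with 4 to 5 exons, 2 were called (Mrpl49 and Mrpl19), or 7.41%, beside 18.1%. Of 21 with 6 to 8 exons, 1 was called (Mrps18a), or 4.76%, beside 10.8%, and none of 8 with 9 or more. In each class that held members, their share was below that of all genes, by counts of 0 to 2 genes a class.

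**Figure D3:**
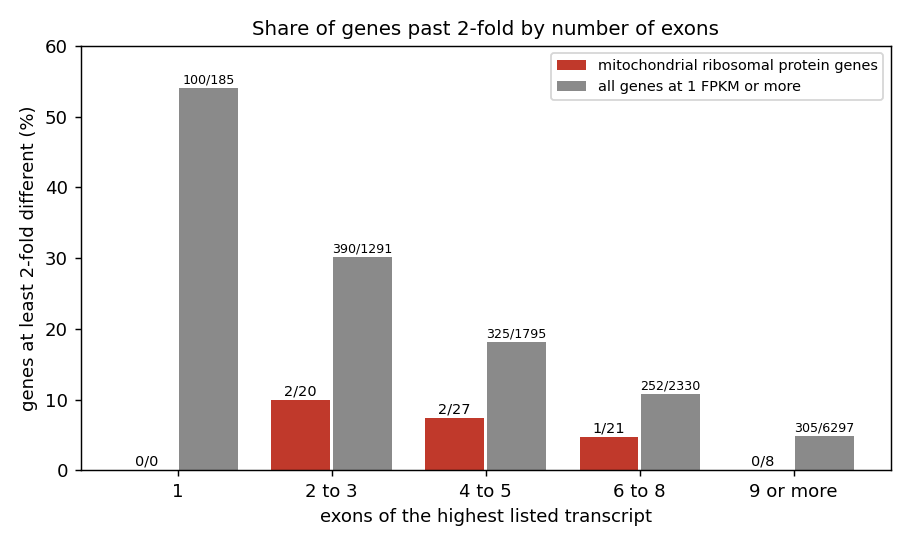
Percent of genes at least 2-fold different between the libraries, by number of exons in the highest listed transcript, for mitochondrial ribosomal protein genes (red) and all genes at 1 FPKM or more (grey), with counts above the bars. The grey bars fall from 54.1% at 1 exon to 4.84% at 9 or more, and the red bars stand at 10%, 7.41%, 4.76% and 0 in the classes that hold members.

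The transcript table lists 119 transcripts of these genes, 1 for 54 genes and 2 or more for 22, with 6 for Mrps17. Of 109 transcripts at 1 FPKM or more in a library, 6 were higher and 8 lower, or 12.8%, beside 12% higher, 12.2% lower and 24.3% in either direction of all 18988 listed transcripts at that level. Both transcripts of Mrps12 were lower, Mrps12-001 with 1.53 FPKM in the miR-7KD-titled library against 20.6 FPKM in the WT-titled library and Mrps12-002 with 2.45 against 17.9 FPKM. The difference of Mrps21 lay mainly in Mrps21-001, with 74.9 against 26.2 FPKM, while Mrps21-201 had 5.95 against 3.62 FPKM. Mrpl49, Mrps18a and Mrpl19 each had 1 listed transcript.

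In 6 genes a transcript passed 2-fold while the gene did not. The share of all genes with such a case is not given here. Of all genes at 1 FPKM or more 11.6% passed 2-fold, and of all listed transcripts at that level 24.3%. The widest case was Mrpl30, whose transcript Mrpl30-007 was at 0.000542 FPKM in the miR-7KD-titled library and 20.1 FPKM in the WT-titled library, or 34.1% of the gene's listed transcripts in the WT-titled library. Mrpl30-001 had 29.4 against 19.2 FPKM, Mrpl30-006 had 21.6 against 18.1 FPKM and the gene 14.2 against 13.4 FPKM. Mrpl30 was also the only gene with transcripts called in both directions, through the low Mrpl30-008 (1.18 against 0.485 FPKM). In Mrps17 the transcripts Mrps17-006 and Mrps17-009 were lower, with 0.224 against 1.08 FPKM and 0.375 against 1.29 FPKM, whereas Mrps17-004 had 3.55 against 2.24 FPKM. Mrpl24-006 was lower with 2.70 against 6.60 FPKM, as was Mrps36-002 with 3.19 against 7.73 FPKM. The leading transcript was not the same in the libraries for Mrpl30, Mrps10, Mrps12 and Mrps17, and the share over all genes is not given here. Mrps10-005 led Mrps10 in the miR-7KD-titled library with 5.81 against 2.93 FPKM. Shares of transcripts that overlap in most exons are estimates, and their error is not known here.

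**Figure D4:**
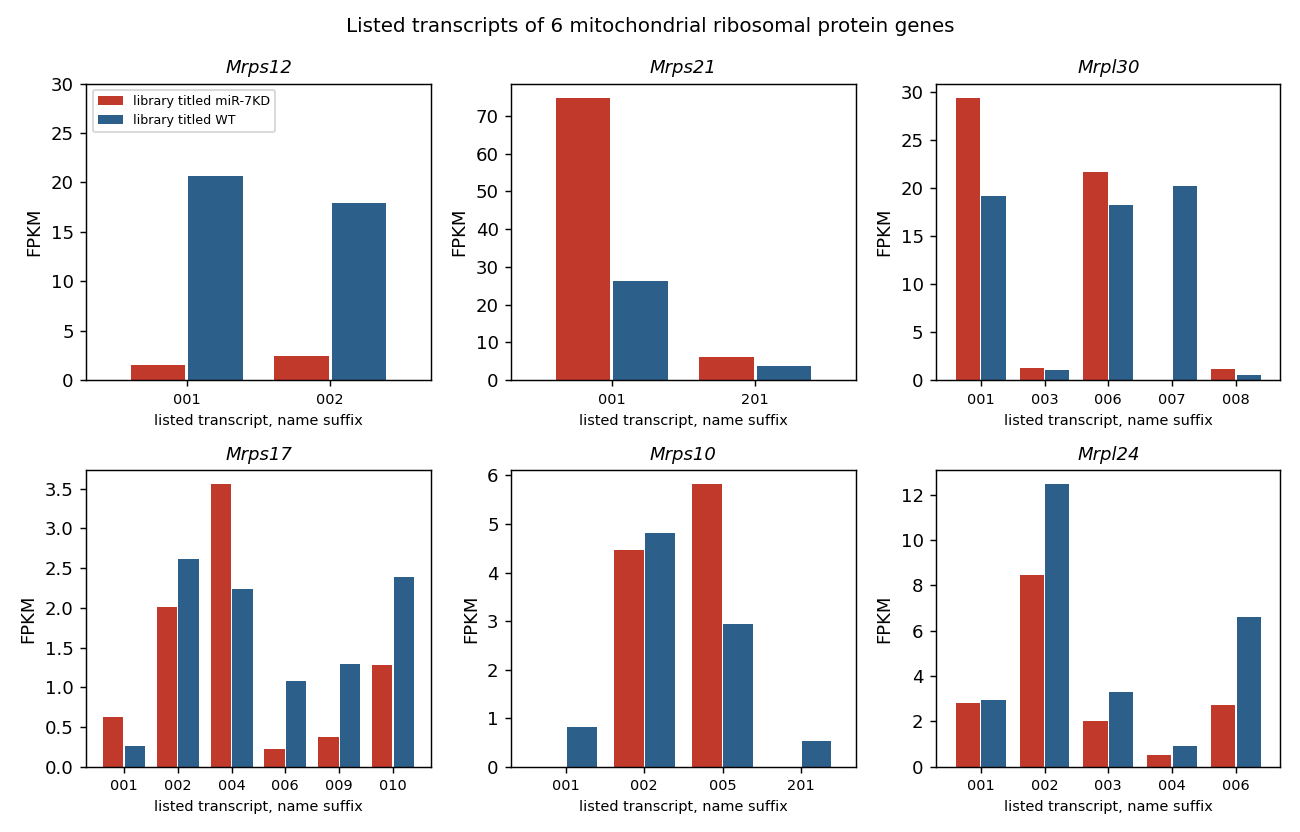
FPKM of each listed transcript of 6 genes in the miR-7KD-titled library (red, left bar) and the WT-titled library (blue, right bar), with each panel on its own scale from 0. Both transcripts of Mrps12 are lower in the miR-7KD-titled library, and Mrpl30-007 stands at 20.1 FPKM in the WT-titled library and near 0 in the other.

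Gene values and transcript values are not sums of each other in these tables. The sum of the listed transcripts was a median of 1.19 times the gene value in the miR-7KD-titled library and 1.22 times in the WT-titled library, and at least 2 times for 14 genes in each. When each transcript's FPKM was multiplied by its length and divided by the bases in all exons of the gene in GENCODE M21, the result was within 10% of the gene value for 46 of 76 genes in each library. Of 24 genes whose exons held at least 2 times the bases of their highest transcript, 17 had a transcript sum of at least 1.5 times the gene value in both libraries. For Mrpl42, Mrpl4, Mrpl32, Mrps30 and Mrpl16 the sum was within 2% of the gene value in both, and Mrpl20 and Mrps34 were in neither class. Mrpl33 had 1.43 against 1.28 FPKM as a gene and 12.5 against 9.74 FPKM as its transcript of 478 bases, beside 7326 bases in all its exons. Mrps18a had 43.0 against 19.2 FPKM as a transcript, which moved it from place 48 by mean gene value to place 10 by transcript sum. Mrpl30 moved from place 27 to place 2 and Mrpl23 from place 69 to place 36.

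The ratio between the libraries was mostly the same on either scale, with a median log2 ratio of -0.03 for the transcript sums. The calls differed for a pair of genes. Mrps2, the counterpart of bacterial S2, had 5.04 FPKM in the miR-7KD-titled library against 2.96 FPKM in the WT-titled library as a gene, a log2 ratio of 0.75, and 3.96 against 1.91 FPKM as its transcript, a log2 ratio of 1.01. Mrps34 changed sides, with 16 against 12.9 FPKM as a gene, a log2 ratio of 0.31, and 0.608 against 1.44 FPKM as its single listed transcript, a log2 ratio of -1.12. Mrps34 overlaps Nme3 on the same strand by 1003 bases and has an unannotated transcript of 11.04 against 5.57 FPKM over it on the same strand.

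**Figure D5:**
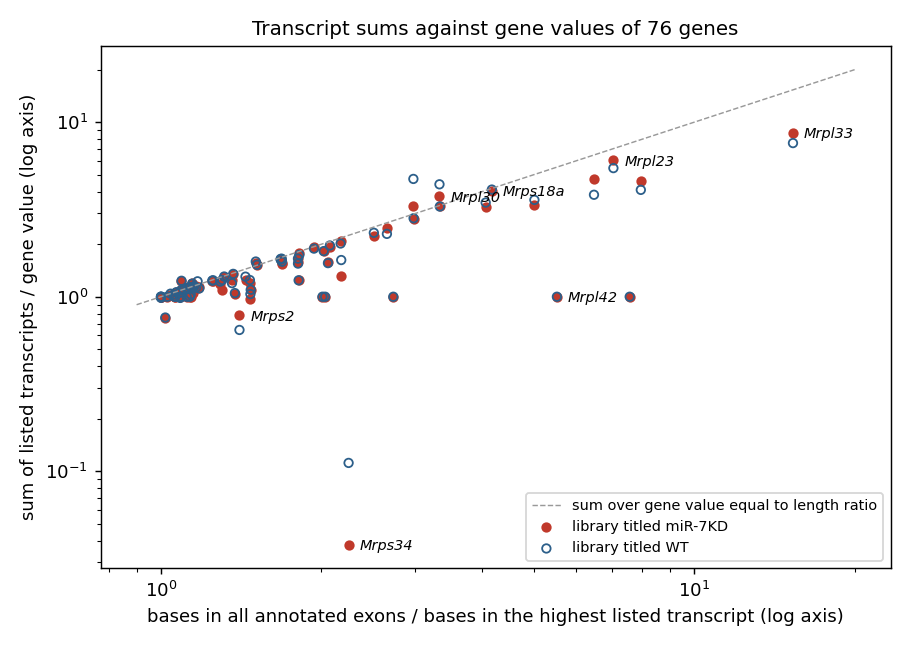
Sum of listed transcripts over gene value against the bases in all annotated exons over the bases in the highest listed transcript, both on log axes, for the 76 genes in the miR-7KD-titled library (filled) and the WT-titled library (open). The dashed line marks equality, Mrpl33 lies highest (8.72 and 7.59 times), Mrpl42 and Mrpl32 are among the 5 genes with long further exons that lie at 1, and Mrps34 lies far below (0.0380 and 0.112 times).

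The authors also deposited transcripts that no annotation holds, and 32 of these overlapped 25 of the genes on the same strand. Of the 32, 9 were higher and 5 lower, beside 30.3% higher, 24.1% lower and 54.4% in either direction of all 10238 unannotated transcripts. Over Mrpl41 an unannotated transcript had 42.6 FPKM in the miR-7KD-titled library and 2.93 FPKM in the WT-titled library, while the annotated gene had 47.9 against 55.5 FPKM. Over Mrpl42 an unannotated transcript had 41.1 against 43.0 FPKM and was as even as the gene. Over Mrps18c a pair of unannotated transcripts went opposite ways, 1 with 19.1 against 0.289 FPKM and 1 listed at 0 against 24.01 FPKM, and added to the gene they gave 38.6 against 42.4 FPKM. Adding all same-strand entries to the gene values brought 2 further genes past 2-fold, Mrpl33 with 5.60 against 1.85 FPKM and Mrpl48 with 7.76 against 17.2 FPKM.

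Many of these genes start close to another gene on the opposite strand. By GENCODE M21, 25 of the 76 had a coding neighbour whose start lay within 1000 bases upstream on the opposite strand or overlapped theirs by up to 500 bases. Of the 25 partners, 19 were at 1 FPKM or more, and none of those differed at least 2-fold, beside 11.6% of all genes. The number of partners is small. Log2 ratios of these 19 ran from -0.96 to 0.50, with a median of 0.00. Mrpl46 and Mrps11 are partners of each other and both were even, with 8.79 against 8.82 FPKM and 7.91 against 7.77 FPKM. Of the called genes, Mrps12 and Mrpl49 had such a partner. The lowest partner was Ptcd2 beside Mrps27, with 7.48 against 14.7 FPKM, where Mrps27 had 6.71 against 7.35 FPKM.

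The promoters of 67 of the 76 genes matched RefSeq by symbol, in 73 windows. CCGGAAG, on either strand, was in 34.2% of these windows, beside 15.4% of 13219 windows of genes in the gene table and 8.86% of all 32851 windows. AAGATGGCG was in 9.59%, beside 2.68% and 1.40%. The longer palindromic motif of NRF1, a regulator of nuclear genes for mitochondria, was in 4.11%, beside 1.91% and 0.971%. Of 7 matches to AAGATGGCG, 6 began 11 to 36 bases after the start site, and of 29 matches to CCGGAAG, 25 began within 75 bases of it on either side. In the windows printed above, CCGGAAG began 1 base after the start site in Mrps12, 26 bases before it in Mrps18a and, on the other strand, 18 bases after it in Mrps21, AAGATGGCG began 11 bases after it in Mrps18a, and Mrpl49 held none of the 3 motifs. The 33 genes with a motif had a median log2 ratio of 0.03 and the 34 matched genes without one a median of 0.01, with 3 calls and 1 call. A match of letters is not a measured site, and windows that divergent genes share are counted once for each gene.

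Of the cell type markers, 1 each for astrocytes, microglia and endothelium differed at least 2-fold between the libraries. Of all genes at 1 FPKM or more, 11.6% did. The part of these markers in the results above was not tested. The summed level of 6 neuron markers was 497 FPKM in the miR-7KD-titled library and 494 FPKM in the WT-titled library, with no call, and that of 5 oligodendrocyte markers was 431 against 403 FPKM, with no call. For 5 astrocyte markers it was 169 against 270 FPKM, with S100b lower (35.4 against 121 FPKM) and by far the widest gap. The other 4 astrocyte markers stayed under 2-fold. A log2 ratio above 0 was found for 2 of the 5, and the median of the astrocyte list was -0.07. For 5 microglia markers the summed level was 18.5 against 19.4 FPKM, with Cx3cr1 lower (0.0172 against 3.03 FPKM). Of these 5, 3 had a log2 ratio above 0, and the median of the microglia list was 0.38. For 4 endothelial markers the summed level was 40.7 against 14.5 FPKM, with Cldn5 listed at 24.7 against 0 FPKM. Without Cldn5 the endothelial sum was 16.03 against 14.5 FPKM, and the other 3 markers had log2 ratios of 0.11 to 0.16. In bulk tissue, fewer cells of a type and less RNA per cell cannot be told apart.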

How the data were processed

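RNA of brain from 2 mice was measured, 1 library per title. The authors deposited FPKM for genes, some with pseudogene names, for their transcripts, and for unannotated transcripts (13381, 23374 and 10238 entries). Bowtie 0.12.2 and the build mm8 are named in the submitters' processing notes. Neither the FPKM program nor the strandedness is given in the sources used here. Positions overlapped the GENCODE M21 (GRCm38) gene of the same ID for 13362 of 13381 genes and all 76 members, so GRCm38 was used. No gene is listed with both values under 0.5005 FPKM. A further table of unannotated loci was not used.

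Columns were assigned by the animal number in the titles. Log2 ratios used a pseudocount of 0.1, which understates changes at low levels, and calls at 2-fold were made where a library reached 1 FPKM. No test was made. How often a call would be wrong was not tested. Copies were sought with BLAST+ 2.17.0 (95% identity over 30% of the transcript), and promoters came from RefSeq. Python 3.11.15, numpy 2.4.6 and pandas 2.3.3 were used. Names of S6 kinases were left out of the cytoplasmic ribosomal set, which still holds pseudogene entries.

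Members, lists and tests were chosen with earlier results of these data known. Named genes were those at least 2-fold different, the 10 highest and 5 lowest by mean level, the 5 largest log2 ratios each way, those whose transcript sum changed the call, the Mrps18 genes, and of other lists the called genes and the 2 of highest level. Sars2, Fau, Syvn1, Rsph9, Gcfc2, Nme3, Ptcd2, Mrm1, Gabpa and Yy1 were chosen after their values were seen. So were the other transcripts, the unannotated entries and the markers named.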

Additional observations from a re-analysis of the deposited data

How the results depend on the processing

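No paired analysis was possible because each title has 1 library and the animal numbers 3 and 7 are not shared, and for the same reason no replicate could be left out. Of the 76 genes, 4 were higher and 1 lower as reported. Summing the listed transcripts gave 5 higher and 2 lower (9.21% of members, beside 12.9% of all genes). Adding the unannotated transcripts of the same strand also gave 5 and 2. They were added to members only, so that count has no like share of all genes. A 1.5-fold threshold gave 7 and 3 (13.2% of members, beside 20.1% of all genes), and a 3-fold threshold gave 1 and 1, Mrpl49 and Mrps12 (2.63%, beside 6.34%). With a pseudocount of 1, Mrpl19 fell short of 2-fold at 0.92 and 3 were higher. Mrps34 reversed to -1.12 with transcript sums, where Mrps2 reached 1.01. The same 5 genes were called with a pseudocount of 0.01, with no minimum, with a minimum of 5 FPKM, after rescaling to a median log2 ratio of 0 or to the same total FPKM, and with genes at 0 left out. The median log2 ratio of the members stayed between -0.03 and 0.05 over the 9 alternatives that gave one. Read on the forward strand only, CCGGAAG was in 19.2% of member windows, beside 8.49% of gene-table windows and 4.77% of all windows. The depth is not known, so the precision of the low genes is not known either.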

Other observations

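Of 78 coding genes that GENCODE M21 names by the same pattern, 2 were outside the set. Mrpl58 is listed under its older symbol Ict1, and Mrpl36 was not listed in the gene table. A near-identical processed pseudogene at another locus of GENCODE M21 was found for 11 members, 14 in all. For Mrpl33, Mrpl53 and Mrps6 the match was a gene model that overlaps the member itself. None of these 17 entries was listed in the gene table. Mrps36 had 4 such pseudogenes, at 95.5% to 99.3% identity, and Mrpl23-ps1 matched Mrpl23 at 100% over 540 of 692 bases. How reads were divided between these genes and their copies cannot be seen in the tables. The members lay on 17 chromosomes, with 10 on chromosome 11 and 8 on chromosome 17.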
